A study of Drosophila melanogaster with 22 samples.

Results

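Natural transposon insertion features are the rows of the count table whose identifier is that of a FlyBase natural transposon insertion (FBti), a copy of a mobile element at a fixed place in the reference genome. All 1572 such rows were taken, of 19146 rows in all, beside 17478 genes and 96 ERCC spike-in transcripts, and each was followed through all 22 libraries. The identifiers carry 93 element names, from roo with 146 insertions to elements with a single one. RNA came from hand-dissected anterior ovarioles of Drosophila melanogaster, that is, from the germarium with its stem cells and the young egg chambers behind it, of virgin w1118 females, a white-eyed laboratory strain. Flies were sampled on each of the first 8 days after eclosion. Days 1 and 4 have 2 libraries apiece and the remaining days 3. Per the labels, a sample pooled 30 to 50 ovarioles, 200 ng of total RNA went into each stranded polyA-selected library, and reads were single-ended and 76 nt long. No group carried a transgene or received a treatment.

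Dissection stopped at egg chambers of stage 8 on the first 4 days and of stage 7 afterwards. Age and dissection limit therefore cannot be told apart between the series of days 1 to 4 and the series of days 5 to 8. Within days 1 to 4 the libraries were of 2 kinds. The libraries called ERCC-low below are replicate 1 of day 2, replicate 2 of day 3 and replicate 2 of day 4, which held 31, 19 and 52 ERCC counts. The other 7 libraries of days 1 to 4 and all 12 of days 5 to 8 held at least 25577 and are called ERCC-bearing. The labels do not mention this split. The 3 ERCC-low libraries were also deeper than the others of days 1 to 4, with 3648865 to 9781870 gene counts against 1146915 to 2573634, and those of days 5 to 8 held 2975582 to 4634327. All 8 germline markers and all 8 markers of follicle and other somatic cells of the ovary had counts in every library, with summed levels of 5713 to 7664 and 586 to 1401 CPM. CPM levels are counts scaled by the TMM-adjusted total of a library's gene counts.

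Transposable elements fall into classes by how they move. LTR retrotransposons such as roo, 412 and gypsy copy themselves through an RNA flanked by long terminal repeats. Non-LTR retrotransposons such as Doc, Rt1b and the R1 element are LINE-like and are copied back at the target site. DNA transposons such as the S element move as DNA between terminal inverted repeats. In the Drosophila ovary their transcripts are held down by the piRNA pathway, in which Piwi-family Argonaute proteins loaded with small RNAs from transposon-rich clusters slice transposon RNA and direct silencing of its source. The germline uses dual-strand clusters, whereas the somatic follicle cells depend on Piwi and the flamenco (flam) cluster. A count on an insertion can come from the element's own transcript, from a host gene's transcript that runs through the insertion, or from another copy with nearly the same sequence.

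The insertions took 1.48 to 4.11% of the counts on genes and insertions in a library, and the same insertion took the largest part in each. The roo insertion FBti0019148 (2L:10946999-10956155, forward strand; release 6 of the genome), 9157 bases long, lies in an intron of dpr2, a gene of the Dpr family of immunoglobulin-domain cell surface proteins, on the strand opposite to it. It was the most abundant insertion in all 22 libraries, with 20.002 to 83.2% of a library's insertion counts, and its mean level was 38.1 times that of the next insertion. It stood at 25509 CPM in day 2 replicate 1, 36550.1 CPM in day 3 replicate 2 and 19582 CPM in day 4 replicate 2. The lowest, median and highest of the 7 ERCC-bearing libraries of days 1 to 4 were 3019, 7036 and 15889 CPM, and those of the 12 libraries of days 5 to 8 were 8606, 11973 and 16002 CPM. The ERCC-low libraries were the 3 highest of all, and the ERCC-bearing libraries of days 1 to 4 spread over a wider range than days 5 to 8. dpr2 itself had 0.0654 CPM on average and at most 0.692 CPM.

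**Figure D1:**
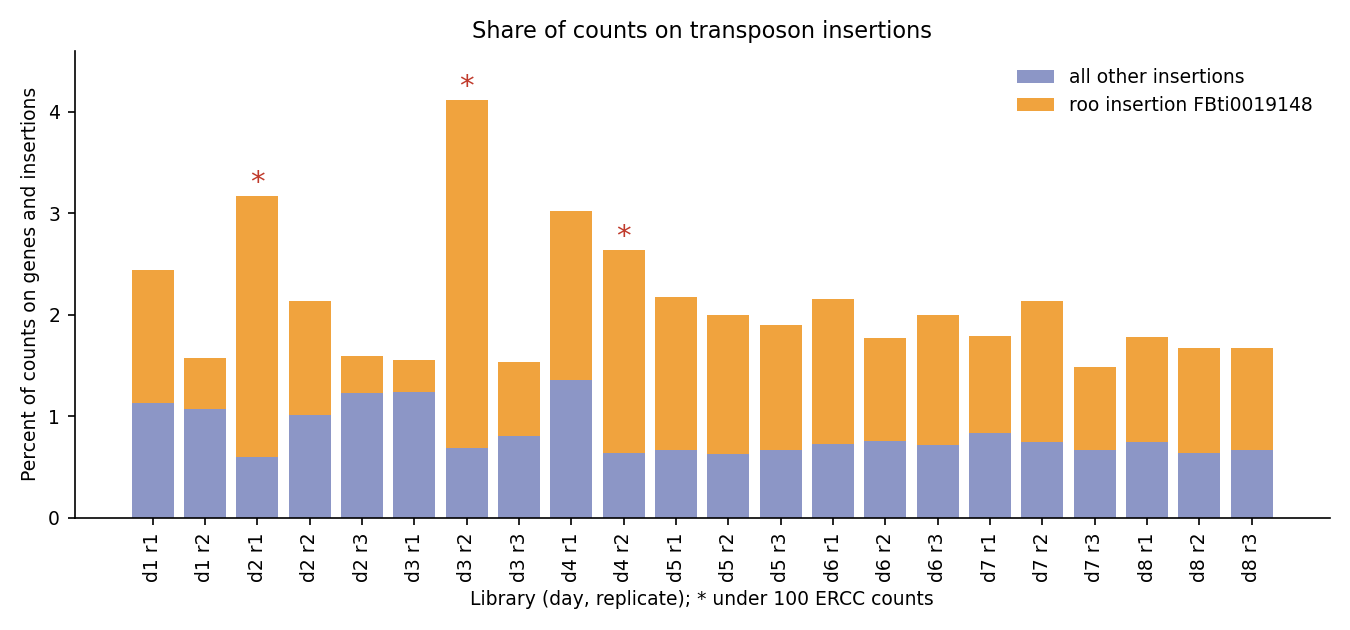
Percent of the counts on genes and insertions that fell on insertions, 1 bar per library (d, day; r, replicate), split into the roo insertion FBti0019148 and all other insertions; asterisks mark the 3 ERCC-low libraries. The total is highest in day 3 replicate 2 at 4.11%, while the part without the roo insertion is 0.602 to 0.690% in the ERCC-low libraries and 0.804 to 1.35% in the 7 ERCC-bearing libraries of the first 4 days.

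The roo insertion and the remaining insertions differed between the kinds of library in opposite directions. The share of all insertions was 3.17, 4.11 and 2.64% in the ERCC-low libraries, against a lowest, median and highest value of 1.53, 1.59 and 3.02% in the ERCC-bearing libraries of days 1 to 4 (difference 1.33 percentage points, two-sided exact permutation test over 3 and 7 libraries, p = 0.0333). Day 4 replicate 1, which is ERCC-bearing, reached 3.02% and overlapped them. It held 910875 ERCC counts, the most of any library. With ERCC counts in the total its share was 1.73%, and the sides did not overlap. Shares were then 2.64 to 4.11% in the ERCC-low and 1.51 to 2.35% in these ERCC-bearing libraries (exact p = 0.0167, the smallest possible here). Permuting only within days 2 to 4, with ERCC counts left out again, gave an exact p of 0.111. The 18 arrangements of that design allow no p under 0.0556. Without the roo insertion the ERCC-low libraries were the lower side, at 0.602, 0.690 and 0.638% against 0.804, 1.13 and 1.35% (difference -0.48 percentage points, exact p = 0.0167), and the sides did not overlap. This p is the smallest that the 120 arrangements of 3 and 7 libraries allow. The share without the roo insertion was not permuted within days. At these depths the 95% Wilson intervals of the shares were at most 0.0607 percentage points wide, and they cover counting error only.

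Between the series the share of all insertions was 2.38% ± 0.872 (SD, n = 10) on days 1 to 4 and 1.88% ± 0.219 (SD, n = 12) on days 5 to 8, a difference that did not pass (two-sided permutation test, p = 0.0694). Leaving out 1 library at a time gave p from 0.0345 to 0.156, and it passed when replicate 2 of day 1, replicate 3 of day 2, or replicate 1 or 3 of day 3 was left out. Against the 3 ERCC-low libraries alone, a subset chosen after seeing the data, it passed too (permutation p = 0.00440). That p is the smallest that this test of 12 and 3 libraries allows. The 3 ERCC-low libraries averaged 3.31% ± 0.748 (SD). The 7 ERCC-bearing libraries of days 1 to 4 averaged 1.98% ± 0.580 (SD), near the 1.88% of days 5 to 8. Leaving out the roo insertion, the shares were 0.976% ± 0.273 (SD, n = 10) and 0.704% ± 0.0599 (SD, n = 12) (difference -0.27 percentage points, permutation p = 0.00396). The 12 libraries of days 5 to 8 ranged over 0.627 to 0.835% on this measure, which overlaps the 0.602 to 0.690% of the ERCC-low libraries and meets only the lowest of the ERCC-bearing libraries of days 1 to 4. Among days 5 to 8 the share passed no test by day (exact permutation test of the between-day sum of squares, p = 0.291), nor among days 1 to 4 (p = 0.884). In bulk tissue, fewer cells of a type and less RNA per cell cannot be told apart.

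Small nucleolar and small nuclear RNAs, which are not polyadenylated in their mature form, moved with the level of the remaining insertions. They took 0.176 to 0.406% of gene counts in the ERCC-bearing libraries of days 1 to 4, 0.0418 to 0.0531% in the ERCC-low libraries and 0.0335 to 0.0997% in days 5 to 8. The mitochondrial share of counts was 1.17 to 2.72% in the ERCC-low libraries, 0.536 to 1.02% in the ERCC-bearing libraries of days 1 to 4, without overlap, and 0.588 to 1.51% in days 5 to 8. The part of these shares, and that of depth, in the differences between the kinds of library was not tested.

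Insertion counts were most concentrated in the ERCC-low libraries. The effective number of insertions, the inverse of the summed squared shares, was 1.44 to 1.74 in the ERCC-low libraries, 2.06 to 3.46 in days 5 to 8 and 3.27 to 21.4 in the ERCC-bearing libraries of days 1 to 4 (ERCC-low against the latter, exact p = 0.0167). Permuting only within days gave an exact p of 0.167. Day 1 replicate 2, day 2 replicate 3 and day 3 replicate 1 were the most even, with the roo insertion at 32.0, 23.1 and 20.002% of insertion counts and 18, 33 and 24 insertions needed to reach the midpoint of the counts. With the roo insertion left out, the effective number was 32.5 to 75.6 in the ERCC-low libraries, 41.0 to 89.1 in days 5 to 8 and 82.0 to 153 in the ERCC-bearing libraries of days 1 to 4 (exact p = 0.0167 for the kinds of library). Both exact p of 0.0167 are the smallest that this test allows. The effective number without the roo insertion was not permuted within days. The 10 leading insertions of a library held 82.5 to 89.4, 68.3 to 82.0 and 37.4 to 64.9% of its insertion counts in these 3 sets.

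**Figure D2:**
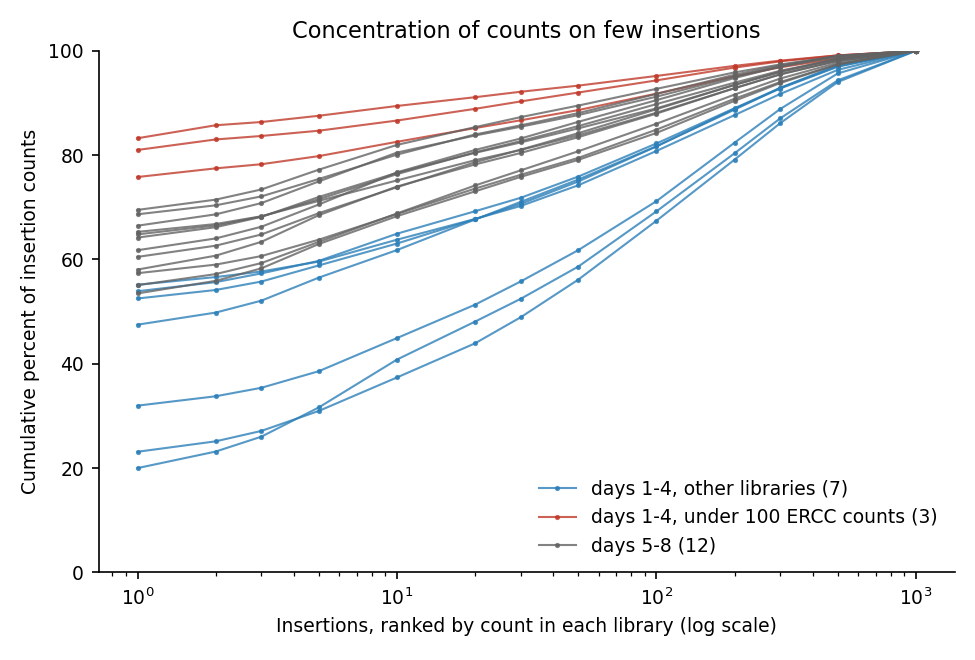
Cumulative percent of insertion counts against the number of insertions, ranked by count within each library (log scale), 1 line per library. The first point of each line is the roo insertion FBti0019148, at 75.8 to 83.2% in the ERCC-low libraries, 53.5 to 69.5% in days 5 to 8 and 20.002 to 55.1% in the 7 ERCC-bearing libraries of the first 4 days.

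Detection was broad but thin. Of the 1572 insertions, 88 had no count in any library, 535 had counts in 1 to 11 libraries, 507 in 12 to 21, and 442 in all 22, and 145 reached 10 counts in every library. The 442 always-detected insertions held 97.0% of insertion counts. Their median length, over the 349 that could be placed in the reference annotation, was 2995 bases, against 1438 and 1976 bases in the next classes and 425 bases for the never-detected. An absent count allows up to 3 counts, or 0.307 to 2.62 CPM depending on the library. Thinned to the depth of the shallowest library, 795 to 986 insertions were detected in the ERCC-bearing libraries of days 1 to 4, 718 to 799 in the ERCC-low libraries and 621 to 847 in days 5 to 8. The difference between the series passed (mean 739.7 ± 69.0, SD, n = 12, on days 5 to 8 and 876 ± 94.6, SD, n = 10, on days 1 to 4, permutation p = 0.00142), and that between the kinds of library was at the threshold (exact p = 0.05, within days 0.167). At full depth the deeper ERCC-low libraries instead had the most, 1065 to 1149 against 913 to 989.

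By element, roo led with a summed mean of 13473 CPM over 146 insertions, 98.0% of it on FBti0019148. 3S18, an LTR retrotransposon, followed with 1351 CPM over 6 insertions, then the non-LTR retrotransposons Rt1b (399 CPM over 37 insertions) and the R1 element (302 CPM over 10), which inserts into ribosomal RNA genes. The S element, 412, 1360, Doc, springer and GATE completed the 10 elements with most counts, at 301, 299, 298, 235, 176 and 174 CPM. Within an element the share of the leading insertion varied: FBti0020101 held 85.2% of the Rt1b counts, FBti0018873 66.3% of the 412 counts and FBti0020119 61.7% of the S element counts, whereas the leading 1360 and GATE insertions held 15.8 and 13.6%. Summed over its insertions the R1 element ranged over 86.0 to 132 CPM in the ERCC-low libraries, 261 to 1091 CPM in the ERCC-bearing libraries of days 1 to 4 and 91.0 to 349.7 CPM in days 5 to 8. Summed 412 levels were 281 to 286, 251 to 359 and 256 to 344 CPM in the same order, with overlap throughout.

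Leaving out FBti0019148, LTR retrotransposons (681 insertions) held 23.9% of insertion counts on average over libraries, non-LTR retrotransposons (486) 11.4%, DNA transposons with terminal inverted repeats (365) 6.14% and foldback elements (39) 0.850%. The roo insertion alone held 57.7%.

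Some insertions could not be told apart by their counts. In all, 393 insertions had at least 200 counts over the libraries, and those that share an element were compared in pairs. Of the 393, 34 fell into 14 groups of copies whose counts differed by less than sampling noise (chi-square per library under 0.5). Together they held 5.68% of insertion counts. The 3 near-identical 3S18 insertions FBti0018869, FBti0019523 and FBti0019554, of 6127 to 6130 bases on chromosomes 2R and X, had totals of 24301, 24191 and 24325 counts (chi-square per library at most 0.192). Groups of 4 copies of Transpac (1442 to 1497 counts each) and Rt1a (842 to 886), and a pair of diver insertions with 804 and 806 counts, behaved likewise. Counts of such copies are not independent measurements. The sources used here do not say how reads matching several copies were counted. Sums over the insertions of an element or class, and numbers of called insertions, may therefore hold the same reads more than once. This was not tested. With each such group counted once, the share of all insertions differed by -0.498 percentage points between the series (permutation p = 0.0748). Between the kinds of library it differed by 1.38 percentage points (exact p = 0.0333).

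The kind of library divided the insertions. Of the 1572, 710 passed the filter on low counts. It asked for about the CPM that 10 counts give at the median library size, in as many libraries as the smallest day has. In shallower libraries fewer than 10 counts reach this CPM. The 710 insertions were tested together with 7976 genes in 1 edgeR quasi-likelihood fit, with Benjamini-Hochberg adjustment over all 8686 features. In the ERCC-low libraries 200 insertions were lower and 10 higher than in the ERCC-bearing libraries of days 1 to 4 at an adjusted p under 0.05. This was 29.6% of those tested, where 21.7% of all features tested were called, 11.8% as lower and 9.84% as higher. The median log2 change of tested insertions was -1.28 and that of genes 0.10. Of the 710 estimates, 620 were negative. Without the filter on low counts the insertions' median was nearer to that of genes, at -1.04, and 1161 of 1484 estimates were negative. With DESeq2 size factors the gene median moved by more than 0.1, to -0.01, and relative to it the insertions' median was -1.38, against -1.38 with TMM. By class, 109 of 291 tested LTR, 64 of 229 non-LTR, 24 of 164 inverted-repeat and 3 of 25 foldback insertions were lower. In the same order 5, 4, 0 and 0 were higher, beside FBti0019148. Leaving out day 2 replicate 1 lowered the number of calls to 82, which was 11.6% of tested insertions. In that fit 851 of 7968 genes were called, so insertions were called little more often than genes. Leaving out replicate 1 or 2 of day 4 leaves 1 library on that day. Fewer insertions and fewer genes were called then too, and the insertions' median log2 change was -1.21 and -1.185.

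**Figure D3:**
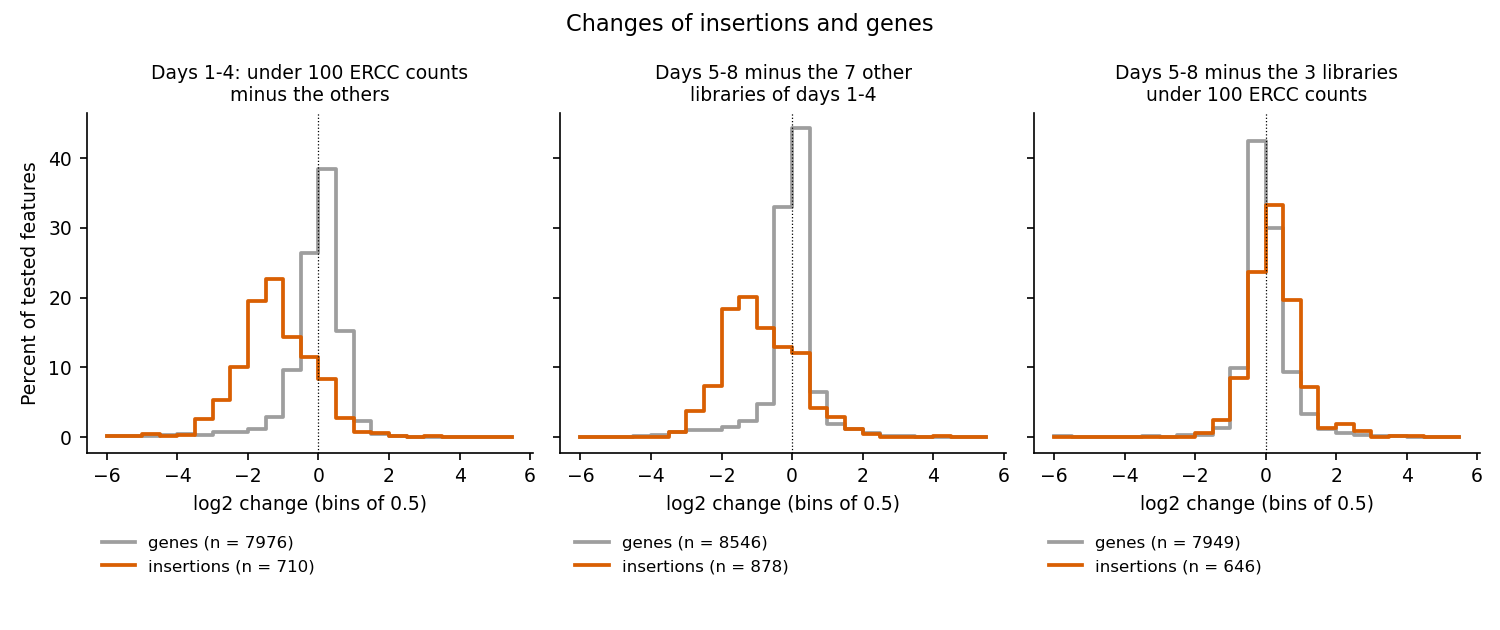
Distribution of log2 changes (x axis, bins of 0.5) of tested insertions and genes, as a percent of each (y axis), in 3 comparisons of libraries. Insertions lie below genes in the first 2, with medians of -1.28 and -1.02, and slightly above them in the third, with a median of 0.23; the comparisons share libraries.

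Among called insertions that averaged 5 CPM or more and whose sides did not overlap, 5 insertions were higher and 92 lower in the ERCC-low libraries, 13.7% of tested insertions where 14.1% of all features met the same conditions. Rt1b FBti0020101 (3L:13574910-13580104, forward strand) lies in an intron of bru-3, a gene of the Bruno family of RNA-binding proteins, on the strand opposite to it. It stood at 634 CPM in day 2 replicate 1, 1093 CPM in day 3 replicate 2 and 429 CPM in day 4 replicate 2. The lowest, median and highest of the ERCC-bearing libraries of days 1 to 4 were 61.6, 130.3 and 228 CPM (log2 change 2.44, SE 0.29, adjusted p = 3.49e-06). All 3 ERCC-low libraries lay above all others. The roo insertion FBti0019148 rose likewise (log2 change 1.84, SE 0.36, adjusted p = 0.000813), although without day 3 replicate 2 its change was 1.17 with an adjusted p of 0.0537. An F element insertion, FBti0019398, non-LTR, in an intron of CG14304 on the same strand and overlapping qin on the other, stood at 37.5 CPM in day 2 replicate 1, 45.2 CPM in day 3 replicate 2 and 27.4 CPM in day 4 replicate 2 against 6.40 to 20.6 CPM (log2 change 1.78, SE 0.28, adjusted p = 8.50e-05); qin encodes a Tudor-domain piRNA factor. Doc FBti0019417, between genes (log2 change 1.66, SE 0.43, adjusted p = 0.00851), and 297 FBti0019977, in an exon of udd (log2 change 1.18, SE 0.32, adjusted p = 0.0111), completed the rises, and both lost their call without day 2 replicate 1, Doc also without day 3 replicate 2 and 297 without either library of day 4.

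The largest changes were falls. BS FBti0019165 (2L:13242015-13244341, forward strand), a non-LTR insertion in an intron of the noncoding gene CR45330 on the same strand and 29 bases from a U2 small nuclear RNA gene, stood at 18.6 CPM in day 2 replicate 1, 28.0 CPM in day 3 replicate 2 and 7.58 CPM in day 4 replicate 2. The lowest, median and highest of the ERCC-bearing libraries of days 1 to 4 were 79.6, 202 and 392 CPM (log2 change -3.30, SE 0.49, adjusted p = 4.53e-05). The R1 element insertion FBti0019883 (2R:4863543-4868897, reverse strand), between genes, stood at 39.6 CPM in day 2 replicate 1, 48.9 CPM in day 3 replicate 2 and 33.5 CPM in day 4 replicate 2, against 137, 296 and 478 CPM (log2 change -2.90, SE 0.39, adjusted p = 1.42e-05). A further R1 insertion, FBti0020235 on chromosome 3L, fell with it (log2 change -2.64, SE 0.47, adjusted p = 0.000351). In none of these did the sides overlap, which was a condition for naming them. The DNA transposon Tc1 had a pair of unplaced insertions, FBti0020431 and FBti0020429, with log2 changes of -3.44 and -3.30. Stalker, an LTR retrotransposon, had FBti0019646, FBti0020328 and FBti0020386, at 0.992 to 1.67 CPM, 1.83 to 2.56 CPM and 1.57 to 3.74 CPM in the ERCC-low libraries against 5.92 to 28.1 CPM, 8.15 to 31.3 CPM and 10.4 to 32.8 CPM. These are minor copies, since FBti0020162 held 75.5% of the Stalker counts. The Stalker sum overlapped between the kinds of library, at 101 to 153 CPM against 114 to 195 CPM. Stalker4 FBti0019574 and Cr1a FBti0020221 had log2 changes of -2.86 and -2.51, and Stalker4 lost its call without either library of day 4 (adjusted p = 0.0867 and 0.0812).

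**Figure D4:**
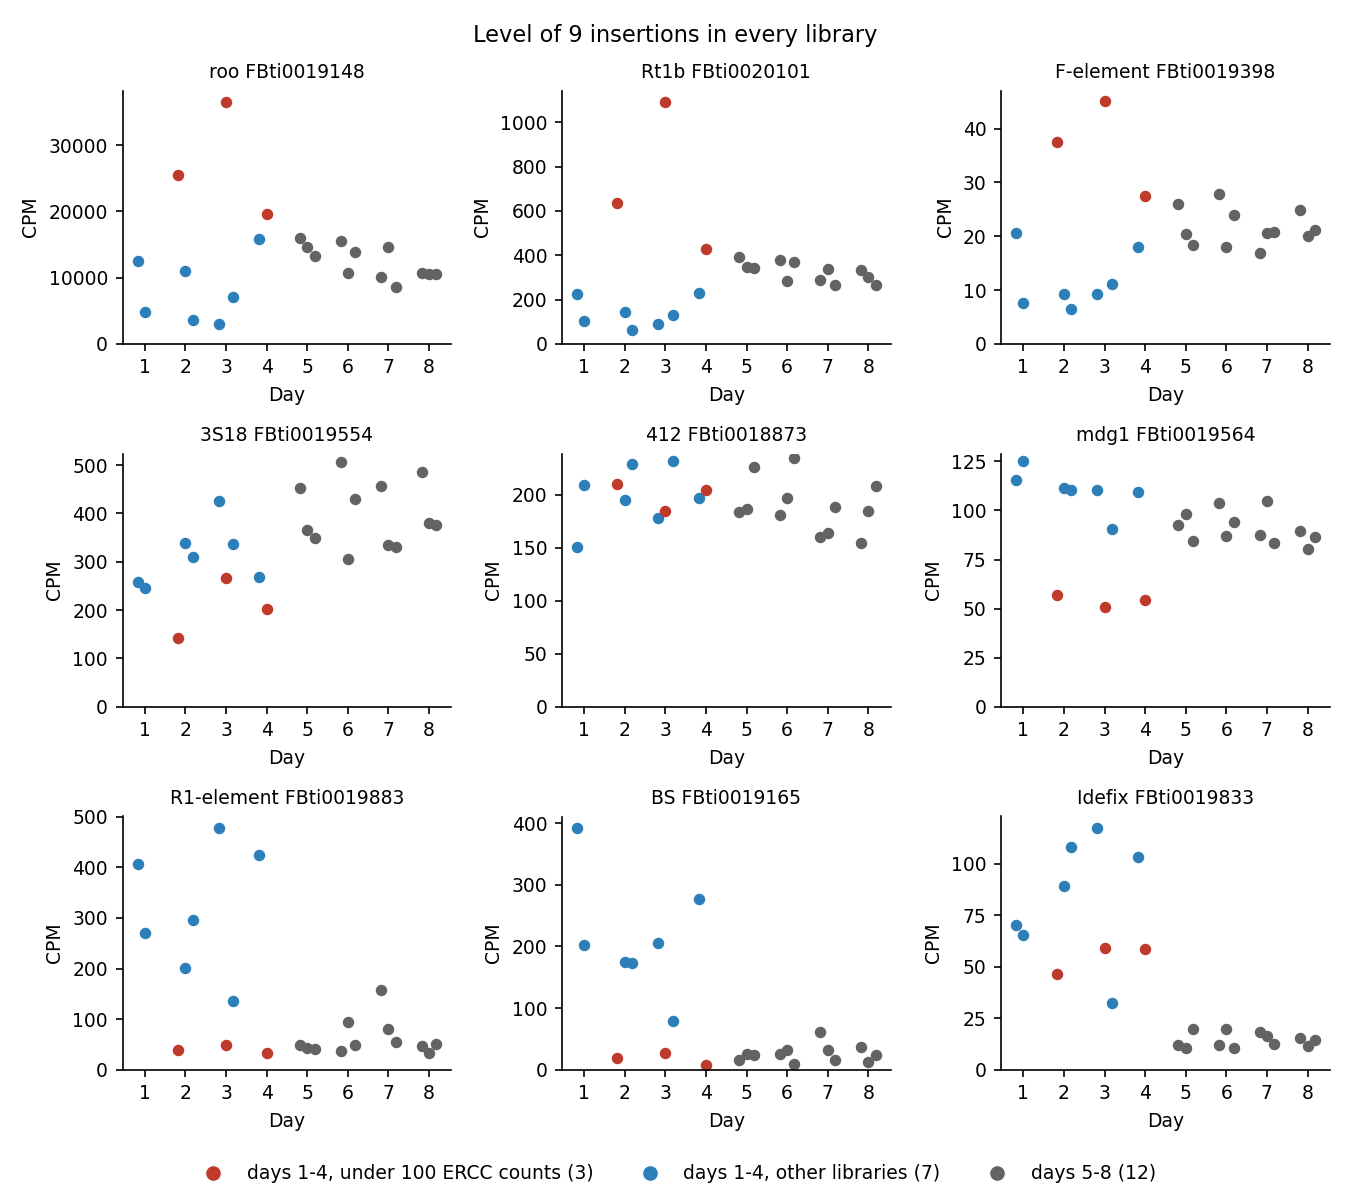
Level (CPM, linear axes from 0) of 9 insertions by day, 1 point per library, coloured by the kind of library. Within days 1 to 4 the top row is highest in the ERCC-low libraries, 412 FBti0018873 overlaps throughout (184 to 209.9 CPM against 151 to 232 CPM), the R1 element and BS insertions are high in the 7 ERCC-bearing libraries of days 1 to 4, and Idefix FBti0019833 is high in all 10 libraries of days 1 to 4.

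Several abundant insertions passed neither test as fitted. 412 FBti0018873, over an exon of Nop60B, a pseudouridine synthase gene, on the strand opposite to it, had 184 to 209.9 CPM in the ERCC-low, 151 to 232 CPM in the ERCC-bearing libraries of days 1 to 4 and 155 to 235 CPM in days 5 to 8 (library kind, log2 change -0.05, SE 0.14, adjusted p = 0.823; series, log2 change -0.06, SE 0.09, adjusted p = 0.697). S element FBti0020119, in an intron of AGO2, the Argonaute of the siRNA pathway, on the same strand, had 137 to 172 CPM, 140.0 to 229 CPM and 151 to 252 CPM in these sets and passed neither test (library kind, log2 change -0.05, SE 0.16, adjusted p = 0.836). 1731 FBti0020325, Tirant FBti0019216, Doc FBti0019157 and springer FBti0019616 did not pass either test at their means of 143, 94.7, 88.2 and 87.7 CPM. For Tirant and Doc the adjusted p between the series was 0.0562 and 0.0565, and both passed as higher on days 5 to 8 under several alternatives, Tirant with DESeq2 (adjusted p = 0.0495) and both with library sizes from genes and insertions (adjusted p = 0.0427 and 0.0424). 1731 passed both comparisons without the filter on low counts, and that between the series with the replicate block (adjusted p = 0.0474). The 4 abundant 3S18 insertions fell in the ERCC-low libraries, by 0.71 to 0.76 on the log2 scale, and lost that call without day 2 replicate 1. For FBti0019554 the levels were 142 CPM in day 2 replicate 1, 267 CPM in day 3 replicate 2 and 202 CPM in day 4 replicate 2 and 245 to 426 CPM in the ERCC-bearing libraries. The mdg1 insertion FBti0019564, 189 bases in an intron of Tlk, a chromatin kinase gene, on the strand opposite to it, was at 50.9 to 56.7 CPM against 90.7 to 125 CPM (log2 change -0.98, SE 0.12, adjusted p = 6.81e-06), with no overlap.

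Between the series, 151 insertions were lower and 10 higher on days 5 to 8 than on days 1 to 4 (edgeR, adjusted p under 0.05), 22.7% of the 710 tested where 10.7% of all features were called, 6.11% as lower and 4.61% as higher. Of the 10 higher, 4 were 3S18 insertions, and 3 of these could not be told apart by their counts. The median log2 change was -0.76 for insertions and 0.00 for genes. These calls depended on which libraries of days 1 to 4 served as the reference. Against the 7 ERCC-bearing libraries alone, 281 insertions were lower and 19 higher, of 878 tested, 34.2% where 16.7% of all features were called. Against the 3 ERCC-low libraries alone, an alternative chosen after seeing the data, 5 were lower and 14 higher, of 646 tested, 2.94% where 17.5% of all features were called, and the median log2 change was 0.23. With library kind as a covariate, also added after seeing the data, 299 were lower and 17 higher. These 316 calls were 44.5% of the 710 tested, beside 1294 of 7976 genes called. These contrasts share libraries. Of the insertions called by library kind, 47.6% were also among those called between the series, and of the latter 62.1% were called by library kind; both comparisons use the libraries of days 1 to 4. Without day 4 replicate 1 the calls between the series numbered 82.

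Only 1 insertion met the naming conditions between the series, 0.141% of tested insertions where 0.334% of all features did. Idefix FBti0019833 (2L:21406236-21408814, reverse strand), is an LTR retrotransposon insertion between a histone pseudogene, 266 bases away, and a histone H1 gene. It stood at 46.5 CPM in day 2 replicate 1, 59.0 CPM in day 3 replicate 2 and 58.8 CPM in day 4 replicate 2. The lowest, median and highest were 32.2, 89.2 and 118 CPM in the 7 ERCC-bearing libraries of the first 4 days and 10.4, 13.6 and 20.1 CPM on days 5 to 8 (log2 change -2.35, SE 0.20, adjusted p = 1.35e-07). Every library of days 1 to 4 lay above every library of days 5 to 8, and the naming conditions required such a lack of overlap. It fell against the ERCC-bearing (log2 change -2.55, SE 0.20, adjusted p = 8.78e-09) and the ERCC-low libraries (log2 change -1.92, SE 0.19, adjusted p = 8.48e-06) alike. The R1 insertion FBti0019883 was at 33.4, 49.3 and 158 CPM on days 5 to 8, in the range of the ERCC-low libraries and above it. It fell against the ERCC-bearing libraries (log2 change -2.48, SE 0.22, adjusted p = 6.55e-08), and its difference from the ERCC-low libraries did not pass (log2 change 0.53, SE 0.28, adjusted p = 0.203). BS FBti0019165, at 10.1, 24.6 and 60.8 CPM on days 5 to 8, gave the same pair of results (log2 change -3.06, SE 0.25, adjusted p = 1.77e-08 and log2 change 0.69, SE 0.38, adjusted p = 0.228). Rt1b FBti0020101 rose against the ERCC-bearing libraries (log2 change 1.16, SE 0.16, adjusted p = 1.98e-05) and fell against the ERCC-low libraries (log2 change -1.04, SE 0.10, adjusted p = 8.62e-06). Its change over all libraries was 0.18. The roo insertion FBti0019148 fell against the ERCC-low libraries (log2 change -1.10, SE 0.12, adjusted p = 2.69e-05) and did not pass against the others (log2 change 0.53, SE 0.21, adjusted p = 0.0808). 3S18 FBti0019554 was higher on days 5 to 8 in both (log2 change 0.38, SE 0.11, adjusted p = 0.0183 and log2 change 1.01, SE 0.16, adjusted p = 0.000435).

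The 19 insertions called against the ERCC-low libraries alone, listed after their values were seen, were these. Beside Idefix FBti0019833, the roo insertion and Rt1b FBti0020101, the F element FBti0019398 (log2 change -0.74, SE 0.16, adjusted p = 0.00425) and Stalker FBti0020162 (log2 change -0.48, SE 0.12, adjusted p = 0.00969) were lower on days 5 to 8. The 4 abundant 3S18 insertions were higher, with log2 changes of 0.98 to 1.03, and their sides did not overlap. 3 of them differ by less than sampling noise, as above, and are not separate results. mdg1 FBti0019564 in Tlk was at 80.5 to 105 CPM on days 5 to 8, above all 3 ERCC-low libraries (log2 change 0.75, SE 0.12, adjusted p = 0.000447). jockey2 FBti0019638 was at 54.6 to 60.2 CPM in the ERCC-low libraries and 69.7 to 126 CPM on days 5 to 8 (log2 change 0.69, SE 0.18, adjusted p = 0.0124). 3 GATE insertions, an LTR element, were also higher, FBti0019911, FBti0020397 and FBti0019910, each with overlap of the sides. Doc FBti0019157, 412 FBti0019531, transib3 FBti0019501, 297 FBti0019078 and Cr1a FBti0019505 completed the rises, with log2 changes of 0.55 to 2.17.

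No insertion passed the test of any difference among days 5 to 8 or among days 1 to 4 with edgeR or with DESeq2 after the filter on low counts. At an unadjusted p under 0.05 edgeR had 27 and 27 of 710 and DESeq2 31 and 43. Of all features 0.0115% and 0.023% were called. In the edgeR fit the smallest p among days 5 to 8 belonged to McClintock FBti0020190, an LTR insertion between genes on chromosome 3L (adjusted p = 0.660), and among days 1 to 4 to rover FBti0019298 (adjusted p = 0.367), followed by rover FBti0019343 and FBti0019061. Without the filter on low counts edgeR called 11 of 1484 insertions (0.741%) among days 5 to 8 and 11 among days 1 to 4. McClintock FBti0020190 (adjusted p = 0.000433) and these 3 rover insertions were among them. In that setting 130 and 260 of 14319 genes were called, so insertions were not called more often than genes. A further 4 insertions named by their p among days 5 to 8 were FBti0019354, 297 FBti0019135, pogo FBti0019379 and Cr1a FBti0020222, with p from 0.00315 to 0.00959, and G5 FBti0020406 and Cr1a FBti0020279 completed the list among days 1 to 4. With 2 or 3 libraries a day, changes of small size may not have been detectable.

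Elements grouped by where they are known to be active gave the following. Of the telomeric elements, which maintain chromosome ends in Drosophila, HeT-A and TART had 4 insertions, all detected and 3 tested. None was called by library kind or series. Their summed level was 13.9 to 16.7 CPM in the ERCC-low libraries, 22.3 to 46.1 CPM in the ERCC-bearing libraries of days 1 to 4 and 8.78 to 30.3 CPM in days 5 to 8. HeT-A FBti0020445, the most abundant, was at 7.69 to 28.4 CPM on days 1 to 4 and 2.93 to 15.0 CPM on days 5 to 8. Of the LTR elements known from follicle cells (gypsy, gypsy5, gtwin, Idefix and Tabor), 18 of 20 insertions were tested. Of these, 10 were lower and 0 higher in the ERCC-low libraries (median log2 change -1.54, beside -1.28 over all tested insertions). Between the series 8 were lower and 0 higher on days 5 to 8 (median -1.22, beside -0.76). Over all tested insertions 28.2% were lower by library kind and 21.3% between the series, and over all features 11.8% and 6.11%. Idefix FBti0019088 and FBti0019375 could not be told apart by their counts, nor could the gtwin pair named below. Members of the list are therefore not all separate results. The summed level of the list was 123 to 157, 197 to 416 and 58.5 to 155 CPM in the 3 sets of libraries. After Idefix FBti0019833, the members named were gypsy FBti0019103 and the gtwin pair FBti0020239 and FBti0020242, whose counts could not be told apart (library kind, log2 change -2.62, SE 0.74, adjusted p = 0.0151 for the first of the pair). Of the elements known from the germline (roo, Burdock, the I element, HeT-A and TART), 70 of 191 insertions were tested. Of these, 18 were lower and 2 higher in the ERCC-low libraries (median -1.09) and 8 lower on days 5 to 8 (median -0.52). Both counts of lower insertions are near or below the shares of all tested insertions just given. Burdock FBti0019119 was lower in the ERCC-low libraries (log2 change -2.76, SE 0.87, adjusted p = 0.0270) and on days 5 to 8 (log2 change -2.08, SE 0.61, adjusted p = 0.0325), at 0.295 to 0.784 CPM, 1.33 to 4.80 CPM and 0 to 2.42 CPM. It is a minor copy, since FBti0018882 held 86.8% of the Burdock counts. The Burdock sum was 38.9 to 57.3, 44.4 to 65.9 and 32.1 to 58.8 CPM in the same order, with overlap throughout. The other named members, roo FBti0019406, FBti0020387 and FBti0019559, had at most 16.8 CPM in a library; the log2 change of FBti0019406 in the ERCC-low libraries, which held no count of it, is not given.

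All 40 listed piRNA pathway genes were tested. By library kind 8 were higher and 5 lower in the ERCC-low libraries (median log2 change 0.12, genes 0.10), and between the series 2 were higher and 2 lower on days 5 to 8 (median 0.09, genes 0.00). Over all features 9.84% were higher and 11.8% lower by library kind, and 4.61% and 6.11% between the series, where the count of piRNA genes is near the background. Higher in the ERCC-low libraries were squ (log2 change 0.98, SE 0.20, adjusted p = 0.00141), del, a component of the complex that licenses dual-strand clusters (log2 change 0.58, SE 0.12, adjusted p = 0.00135), AGO3, the Argonaute of the ping-pong cycle (log2 change 0.47, SE 0.15, adjusted p = 0.0317), and thoc7 (log2 change 0.75, SE 0.20, adjusted p = 0.0108). Lower were spn-E, a germline helicase (log2 change -0.52, SE 0.13, adjusted p = 0.00688), mino, tho2, Trf2 and vas. On days 5 to 8 fs(1)Yb, a factor of the somatic pathway, was higher (log2 change 0.77, SE 0.17, adjusted p = 0.00455). Summed over the list, levels were 4623 to 5009 CPM in the ERCC-low, 4461 to 5394 CPM in the ERCC-bearing libraries of days 1 to 4 and 4833 to 5709 CPM in days 5 to 8.

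Markers of other cells moved with the series, in both directions, where 4.61% of all features were higher and 6.11% lower. All 8 eggshell (chorion) genes of late follicle cells were lower on days 5 to 8, with summed levels of 106 to 1607 CPM on days 1 to 4 and 3.81 to 32.4 CPM after. Also lower were 7 of 8 genes of the muscle sheath around the ovarioles (556 to 1694 and 439 to 728 CPM) and 2 of 3 tested haemocyte genes. None of the 2 tested fat body genes was called between the series. Of the markers of follicle and other somatic cells, 2 of 8 were higher and 0 lower on days 5 to 8, with sums of 586 to 1150 CPM on days 1 to 4 and 982 to 1401 CPM after. Of the germline markers 2 were higher and 2 lower. By library kind, where 11.8% of all features were lower, 4 of 8 markers of follicle and other somatic cells were lower in the ERCC-low libraries, with sums of 586 to 727 against 820.3 to 1150 CPM. Also lower were 2 of 8 germline, 2 of 8 chorion, 1 of 8 muscle sheath, 1 of 2 tested fat body and 0 of 3 tested haemocyte genes. No gene of these lists was higher. Their part in the differences of the insertions was not tested.

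Placed insertions were classed by the genes they overlap: 612 lie between genes, 322 (beside FBti0019148) and 283 in introns on the opposite and the same strand. Another 57 over exons on the same strand and 44 over exons on the opposite strand, and 253 insertions were not placed. By library kind the median log2 changes over exons were -0.46 (43 tested, 7 lower and 2 higher) on the same strand and 0.01 (26 tested, 4 lower and 1 higher) on the opposite strand, where 21.7% of all features were called, a share near that of both classes. In introns of the same and of the opposite strand the medians were -1.30 and -1.27, and between genes -1.36, beside -1.28 over all tested insertions. Whether these classes differ was not tested. Summed over insertions, those over exons of the same strand held 756 to 803 CPM in the ERCC-low and 797 to 907 CPM in the ERCC-bearing libraries of days 1 to 4, while those between genes held 1459 to 1771 and 2167 to 4612 CPM.

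For 252 tested insertions that overlap exactly 1 tested gene, the level was set beside that of the gene over the 22 libraries, as a description, since the libraries share depth and scaling. Pearson's r of log2 CPM had a median of 0.38 over exons of the same strand (n = 27 pairs), 0.36 over exons of the opposite strand (n = 19), 0.28 in introns of the opposite strand (n = 120) and 0.21 in introns of the same strand (n = 86). In some pairs the levels were correlated, at different heights. 297 FBti0019977 followed udd, a cofactor gene of ribosomal RNA transcription (r = 0.95), with log2 changes between the kinds of library of 1.18 and 1.03 for insertion and gene. mdg1 FBti0019564 followed Tlk (r = 0.94), with -0.98 and -0.77. Tc1 FBti0019497 followed bt, the gene of the giant muscle protein projectin (r = 0.91), with -1.50 and -1.18. S element FBti0020119 followed AGO2 (r = 0.88), with -0.05 and -0.20. Rt1b FBti0020101 and bru-3 had no such relation (r = 0.04), with 2.44 and 0.03.

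**Figure D5:**
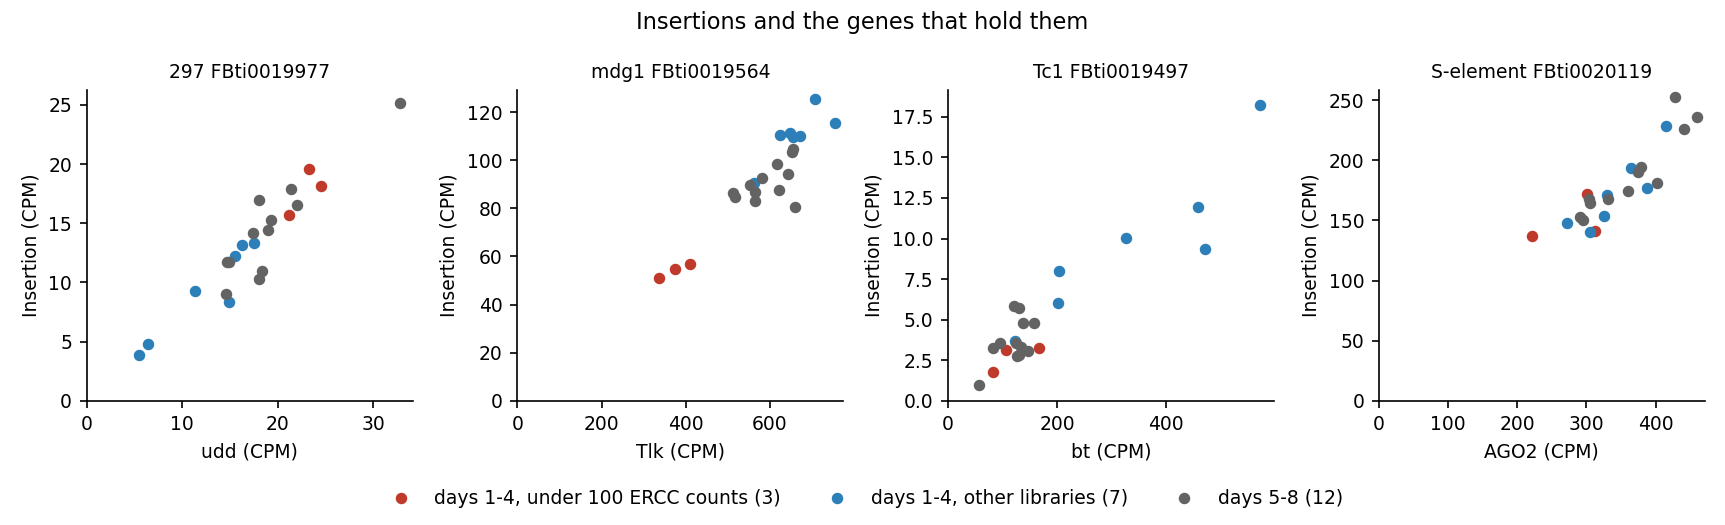
Level of an insertion (y axis, CPM) against that of the gene it overlaps (x axis, CPM) in each of the 22 libraries, for the 4 pairs with the highest Pearson r among insertions with a mean of at least 5 CPM. The r values on the log2 scale run from 0.88 (AGO2) to 0.95 (udd); the 3 ERCC-low libraries are the lowest for Tlk and its mdg1 insertion.

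The flam piRNA cluster, transcribed in follicle cells, overlaps 6 insertion features, all tested. Its gypsy2 insertion FBti0019707, on the strand opposite to flam, was the most abundant at 16.3 to 28.5 CPM in the ERCC-low libraries, 46.7 to 93.8 CPM in the ERCC-bearing libraries of days 1 to 4 and 10.031 to 28.1 CPM in days 5 to 8 (library kind, log2 change -1.79, SE 0.27, adjusted p = 5.47e-05; series, log2 change -1.70, SE 0.27, adjusted p = 0.000321). Helena FBti0019706 was lower in both comparisons (log2 change -1.88, SE 0.57, adjusted p = 0.0224; log2 change -1.49, SE 0.39, adjusted p = 0.0178), and gtwin FBti0019702 between the series (log2 change -2.21, SE 0.50, adjusted p = 0.00691). The flam gene itself, at 1.57 to 4.47 CPM, 1.33 to 15.2 CPM and 0 to 6.57 CPM, did not pass (library kind, log2 change -1.56, SE 0.85, adjusted p = 0.195; series, log2 change -1.47, SE 0.57, adjusted p = 0.101). Insertions in flam were singled out after their values were seen.

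The features most like the roo insertion FBti0019148 over the 22 libraries, by Pearson's r of log2 CPM, were Rt1b FBti0020101 (r = 0.93), the F element FBti0019398 (0.89), roo FBti0020055 (0.87) and the genes ND-20, a subunit of mitochondrial complex I (0.84), and RPA3, a subunit of the single-strand DNA-binding complex RPA (0.82). Rt1b FBti0020101 stayed close within the 12 libraries of days 5 to 8 (r = 0.90) and within the 7 ERCC-bearing libraries of days 1 to 4 (r = 0.93). The F element insertion had 0.49 and 0.80 in these sets, and RPA3 0.37 and 0.84. The second roo insertion, FBti0020055, was at 6.53 to 14.4 CPM, 0.800 to 7.82 CPM and 3.02 to 9.95 CPM in the ERCC-low libraries, the ERCC-bearing ones of the first 4 days and days 5 to 8.

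Per kilobase of insertion the roo insertion FBti0019148 was again first, at 1433 CPM per kb. The next were short fragments: jockey2 FBti0019638 (152 bases, 524 CPM per kb, between genes), mdg1 FBti0019564 in Tlk (488), the I element fragment FBti0019063 over an exon of Top1, the topoisomerase I gene (188 bases, 442), and Stalker FBti0020162 over exons of CG32212 and pncr009:3L (432 bases, 193). The long 3S18 FBti0019554, Rt1b FBti0020101 and 412 FBti0018873 had 56.1, 61.7 and 26.1 CPM per kb.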

How the data were processed

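RNA was measured in 22 libraries. Per the submitters' processing notes, CASAVA 1.8.2, HISAT2 2.0.1, SAMtools 0.1.2, HTSeq 0.6.1p1 and FlyBase 6.07 were used. The deposited values are raw counts per gene, insertion and ERCC transcript, as the authors made them, pooled over no libraries. Gene totals were 1146915 to 9781870 a library, and intervals and the floor of 3 counts cover counting error only. The replicates are independent biological samples, per the labels, and no 2 libraries of a day agreed within sampling noise (chi-square per feature of 4.48 to 34.5 over 20 pairs).

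Counts were fitted with edgeR 4.0.16 in R 4.3.3 (quasi-likelihood test, TMM factors and library sizes from genes alone, ERCC rows left out, filterByExpr with a minimum count of 10, 1 coefficient per day, plus 1 for library kind in that comparison alone), with Benjamini-Hochberg adjustment over all genes and insertions and a threshold of 0.05. The fit was tested on simulated data. Shares, detected insertions (expected number after thinning to 1165003 counts) and effective numbers were compared with permutation tests (scipy 1.17.1), exact for library kind and days and with 100000 resamples for the series. DESeq2 1.42.0, other filters and scalings, a replicate block and leaving out each library were alternatives. Insertions were placed by matching identifiers to a release 6 annotation. Named were the 15 most abundant insertions, up to 10 rises and 10 falls by log2 change among called insertions that averaged 5 CPM or more and whose sides did not overlap, the 5 smallest p among days, up to 4 members of each list, and the 5 features most like the most abundant insertion. Members and lists were chosen with earlier results of these data known.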

Additional observations from a re-analysis of the deposited data

How the results depend on the processing

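Without the roo insertion FBti0019148 the difference in share between the series became -0.273 percentage points and passed, and without the 10 most abundant insertions it was -0.292. Between the kinds of library these settings turned it to -0.475 and -0.445. Against the 3 ERCC-low libraries alone, a setting chosen after seeing the data, the series differed by -1.43 percentage points in share, which then passed, by -31.3 in detected insertions, which no longer passed, and by 1.06 in the effective number, with the opposite sign. In share the 7 ERCC-bearing libraries of days 1 to 4 averaged 1.98%, beside 1.88% on days 5 to 8. The effective number differed by -6.37 against the 7 ERCC-bearing libraries and by -43.2 without the roo insertion. At full depth the series differed by -66.4 detected insertions, which did not pass, and the kinds of library by 141, with the opposite sign, while requiring 10 counts gave -136. Calls between the series were 300 of 878 without the ERCC-low libraries, 19 of 646 without the other 7 and 316 of 710 with library kind as a covariate. In the same settings 1278 of 8546, 1488 of 7949 and 1294 of 7976 genes were called. Without a filter on low counts 11 of 1484 insertions were called among days 5 to 8 and 11 among days 1 to 4, beside 130 and 260 of 14319 genes. Without the ERCC-low libraries 1 of 878 was called among days 1 to 4, beside 16 of 8546 genes. Against the 3 ERCC-low libraries alone the change between the series turned sign for Rt1b FBti0020101 (-1.04), R1 FBti0019883 (0.53), R1 FBti0020235 (0.41) and mdg1 FBti0019564 (0.75). The cause was not tested for any of these.

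Leaving out each library in turn gave differences in share of -0.592 to -0.305 percentage points between the series and 0.924 to 1.66 between the kinds, in detected insertions of -154 to -124 and -171 to -124, and in the effective number of -4.74 to -2.52 and -8.39 to -5.36. The p of the share ran over 0.0693 to 0.443 among days 5 to 8 and 0.287 to 0.971 among days 1 to 4. Calls ran over 82 to 261 by kind, 82 to 220 between the series, 0 to 0 among days 5 to 8 and 0 to 1 among days 1 to 4. Deviations of same-numbered libraries correlated with a median of -0.01 on days 1 to 4 and 0.09 on days 5 to 8. For different-numbered libraries the medians were 0.006 and -0.05, and the ranges overlapped in both series. Whether replicate numbers pair the libraries was not tested. With the replicate block the calls were 204, 153, 0 and 0 in the same order. Depth limits low insertions most: the shallowest library held 1146915 gene counts.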
